A study of Rattus norvegicus with 78 samples.

Results

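Hbb, Alas2 and Slc4a1 are genes of the red blood cell, and their signal in rat hippocampus is described here for each of 78 animals. The members are all probe sets whose platform gene symbol is 1 of these 3 names, which gave 4 of the 15866 probe sets on the array that are not controls: 1 for Hbb, 1 for Alas2 and 2 for Slc4a1. Of the genes on the platform these are 3 of 10411 with a symbol of their own. They were chosen with values of aged against young rats in these data known, that is, selected on their difference with age, so differences of age are given for them as a description, with no test.

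The array was the Affymetrix RAE230A, on which each gene is read by 1 or more sets of short probes, and 1 array was hybridised per animal. The RNA came from the dorsal portion of the hippocampus on the left side. All animals were male F344 rats, an inbred laboratory strain, and none carried a transgene. Aged rats were 24 to 26 and young rats 4 to 6 months old. Home-cage rats without maze training formed the groups NT-A (aged, n = 10) and NT-Y (young, n = 10). The other rats were trained in the Morris water maze, a swimming task that asks an animal to find a submerged platform by its place. Those of day 5 were 5T-AI (aged impaired, n = 10), 5T-AU (aged unimpaired, n = 10) and 5T-Y (young, n = 10). Those of day 21 were 21PT-AI (aged impaired, n = 9), 21PT-AU (aged unimpaired, n = 10) and 21PT-Y (young, n = 9). The authors divided aged rats into impaired and unimpaired by their own maze performance, so these groups are ranges of one behaviour and not treatments. The labels state that the tissue was dissected straight after death and frozen, and a step that flushes blood from the vessels is not given in the sources used here.

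Red cells form in the bone marrow from precursors that fill themselves with haemoglobin, a carrier of oxygen made of α- and β-globin chains and the iron compound haem. Hbb encodes β-globin, Alas2 the erythroid form of the enzyme that opens haem synthesis, and Slc4a1 the band 3 protein, which exchanges chloride for bicarbonate across the red cell membrane and ties it to the skeleton beneath. Mature red cells have no nucleus, young ones still hold globin RNA, and low globin expression has also been described in neurons and glia.

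The β-globin genes lie side by side in a cluster. The start regions of 3 of them and a window within Alas2 are printed. They show the letters that globin probe sets' genes share and those they do not. Each β-globin line holds the 150 bases before the gene start as RefSeq lists it on the rat build GRCr8, read 5′ to 3′ on the gene's strand. The Alas2 line is a window of 150 bases that does not lie before the start of the listed gene span. It carries the label promoter from its source and is not taken here as the promoter of that span. Capitals mark the motifs searched on both strands, which were CACCC as bound by Klf factors, CCAAT of the promoter element of that name, GATAA as bound by GATA factors and ATAAA of the TATA-like box.
Hbb promoter: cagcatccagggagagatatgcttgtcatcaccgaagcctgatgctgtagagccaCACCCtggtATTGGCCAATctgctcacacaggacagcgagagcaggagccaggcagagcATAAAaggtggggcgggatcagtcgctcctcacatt
Hbb-bs promoter: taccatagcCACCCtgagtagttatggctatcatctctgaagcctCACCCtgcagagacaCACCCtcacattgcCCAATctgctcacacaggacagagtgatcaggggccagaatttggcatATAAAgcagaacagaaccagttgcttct
Hbbl1 promoter: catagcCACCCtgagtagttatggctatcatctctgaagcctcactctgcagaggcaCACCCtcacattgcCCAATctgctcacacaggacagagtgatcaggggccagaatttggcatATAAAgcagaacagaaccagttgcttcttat
Alas2 promoter: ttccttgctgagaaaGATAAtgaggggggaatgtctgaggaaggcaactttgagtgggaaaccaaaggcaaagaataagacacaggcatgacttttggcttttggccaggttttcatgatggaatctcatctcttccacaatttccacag
The Hbb window is chr1:167663722-167663871 on the minus strand, that of Hbb-bs chr1:167631631-167631780 and that of Hbbl1 chr1:167650236-167650385, both also on the minus strand. The Alas2 window is chrX:22895300-22895449 on the plus strand and lies inside the listed span of the gene, chrX:22890650-22914046. The Hbb line holds CACCC at position -95 from the gene start and ATAAA at -36. It also holds CCAAT at -81 and, on the other strand, at -86, and these 2 matches lie side by side. Over these windows Hbb was 68.4% identical to Hbb-bs and 69.4% to Hbbl1, while Hbb-bs and Hbbl1 were 94.8% identical to each other. The Alas2 line holds GATAA at -135, counted from the end of its window, and none of the other motifs. These letters do not describe the start of the listed gene span. Such short motifs are common: CACCC is in 35.2%, ATAAA in 25.7%, CCAAT in 23.5% and GATAA in 14.2% of 33469 rat promoters cut to the same window, so a match describes the letters only. Promoter entries were found for 2 of the 3 members, Hbb and, only as the window inside its gene span, Alas2. Slc4a1 lies on chromosome 10, from 87807010 to 87823274 in GRCr8.

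The arrays were scaled by the authors to a common mean, and the median signal of an array was between 228.4 and 267.8 intensity units. As a mark of low signal the 40th percentile of each array was used, which lay between log2 7.16 and 7.48. Among genes of the labelled tissue, 13 of 13 neuronal, 8 of 8 astrocyte and 7 of 7 oligodendrocyte genes were above that level in at least 9 arrays. Their mean log2 signals ran from 7.93 for Gad2 to 13.51 for Mbp. One array, that of 5T-AI replicate 4, was unlike the others. It had the highest summed signal of the lists for microglia (31487 units, against 11086 in the next array), blood leukocytes (9038 against 1967), meninges (12660 against 2673) and vessel wall (7719 against 6712), and the lowest for neurons (30900 against 41182). It was also highest for haem synthesis (4147 against 3524), late erythroid (19532 against 17085) and erythroid transcription factor genes (922 against 708). The same held for clearance (3778 against 3418) and platelet genes (1553 against 851), and it was lowest for red cell membrane genes (7150 against 7535). Its effect is given beside the main results it touches, and leaving it out changed no call of a listed gene in the age difference on day 5.

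Hbb was bright in every animal and brighter in aged than in young rats in all 3 cohorts. Its mean lay above that of 96.9% of all probe sets, and all 78 arrays were above the 40th percentile. Among home-cage rats its signal had a lowest value of 2186, a median of 3754 and a highest value of 5750 intensity units in NT-A, against 1490, 2070 and 2899 in NT-Y. On day 5 these were 2804, 3472 and 8812 in 5T-AI and 2230, 4120 and 5560 in 5T-AU, against 1664, 2081 and 2673 in 5T-Y. On day 21 they were 1599, 4704 and 9742 in 21PT-AI and 2255, 3793 and 13108 in 21PT-AU, against 1703, 2320 and 2739 in 21PT-Y. The 5T-AI rats did not overlap with 5T-Y, and the other aged groups each overlapped with the young rats of their cohort at their low end. The lowest aged array, in 21PT-AI, was also below the lowest of 21PT-Y. Of the 49 aged arrays 40 were above the highest of the 29 young arrays. The share of all probe sets separated to such a degree was not counted, for this member or the later ones. As the members were chosen with their age values known, nothing is read from such separations.

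On the log2(signal + 1) scale Hbb averaged 11.86 ± 0.42 in NT-A and 10.96 ± 0.31 in NT-Y (SD, n = 10 each), a difference of 0.90 ± 0.21 (SE of the fit over all 8 groups), or 1.87-fold. On day 5 it averaged 11.93 ± 0.47 in 5T-AI, 11.86 ± 0.48 in 5T-AU and 11.01 ± 0.22 in 5T-Y (SD, n = 10 each). On day 21 the means were 12.21 ± 0.79 in 21PT-AI (SD, n = 9), 11.95 ± 0.67 in 21PT-AU (SD, n = 10) and 11.13 ± 0.25 in 21PT-Y (SD, n = 9). The mean of the aged groups exceeded young rats by 0.89 ± 0.18 on day 5 and by 0.96 ± 0.19 on day 21, so the 3 cohorts gave nearly the same step. Without 5T-AI replicate 4 the day 5 difference was 0.82 ± 0.17. Hbb also varied more between aged animals of one group, with a within-group SD of 0.58, than between young ones, at 0.26, a contrast of spread that was not tested. In bulk tissue, more red cells in the sample and more RNA per cell cannot be told apart.

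Hbb was higher in the aged rat on each of the 10 scan days that held an NT-A and an NT-Y array. It was higher on 10 of 10 days for 5T-AI and 9 of 10 for 5T-AU against 5T-Y, and on 7 of 8 for 21PT-AI and 7 of 9 for 21PT-AU against 21PT-Y. Within the 3 chip lots the difference over all rats was 0.97, 0.84 and 0.97, and within the 4 fluidics modules, the units that wash and stain arrays, 1.13, 0.96, 0.79 and 1.17, the last with a single young array. Groups were not spread evenly over modules: module 1 took all 10 NT-Y arrays, while module 4 took 8 of the 10 from NT-A. The young side of module 1 was thus untrained rats only, and the values within modules mix training with age. With module as a term the difference was 1.13 in home-cage rats and 0.60 on day 5.

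Alas2 was far dimmer, and its signal was higher in aged rats too. Only 28 of 78 arrays were above the 40th percentile of their own array, 27 of them from aged rats, so its differences are measured close to the background. Its lowest, median and highest signals were 92, 151 and 266 units in NT-A, against 68, 95 and 148 in NT-Y. On day 5 they were 116, 155 and 563 in 5T-AI and 116, 176 and 209 in 5T-AU, against 75, 115 and 161 in 5T-Y. On day 21 they were 109, 199 and 637 in 21PT-AI and 121, 174 and 1008 in 21PT-AU, against 83, 111 and 150 in 21PT-Y. Aged and young rats overlapped in every cohort, and 26 of 49 aged arrays were above the highest young array.

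The log2 means of Alas2 were 7.33 ± 0.41 in NT-A and 6.60 ± 0.36 in NT-Y (SD, n = 10 each), which differed by 0.73 ± 0.24 (SE). The aged groups exceeded young rats by 0.61 ± 0.21 on day 5 and by 0.94 ± 0.22 on day 21, and the day 5 value without 5T-AI replicate 4 was 0.51 ± 0.20. With fluidics module as a term the difference in home-cage rats was 1.196. As for Hbb, the within-group SD was larger in aged rats, at 0.66, than in young rats, at 0.32.

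Slc4a1, the membrane member, showed no like step over the 3 cohorts, and its 2 probe sets gave different values. Between animals within groups they had an r of 0.182 with each other (n = 78, permutation p = 0.101, rho = 0.161), or 0.165 without the 2 animals farthest from the median of the brighter one, a relation examined after the other values were seen. The brighter one was above the 40th percentile in 24 of 78 arrays. Its lowest, median and highest signals were 63, 132 and 186 units in NT-A, against 68, 160 and 196 in NT-Y. On day 5 they were 77, 114 and 161 in 5T-AI and 82, 130 and 212 in 5T-AU, against 96, 148 and 216 in 5T-Y. On day 21 they were 102, 118 and 168 in 21PT-AI and 110, 169 and 244 in 21PT-AU, against 90, 138 and 249 in 21PT-Y. All groups overlapped, and no aged array was above the highest young array. The difference of aged from young rats was -0.18 ± 0.19 in home-cage rats, -0.24 ± 0.16 on day 5 and 0.03 ± 0.17 on day 21 (log2 ± SE), and the last was -0.03 without 21PT-Y replicate 6. With fluidics module as a term the difference in home-cage rats was -0.59 ± 0.26.

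The dimmer Slc4a1 probe set was above the 40th percentile in 1 array, 5T-AI replicate 4, and missed the filter, so its values come from the fit without one. Its signal ran from 39 to 182 units in the aged and from 38 to 96 units in the young groups, with 7 of 49 aged arrays above the highest young array. The differences were 0.15 ± 0.18, 0.28 ± 0.15 and 0.03 ± 0.16 in home-cage rats, on day 5 and on day 21. Leaving out 5T-AI replicate 4 gave 0.22 ± 0.14 on day 5. In home-cage rats a term for fluidics module gave 0.50 ± 0.24, opposite in sign to the brighter probe set. At such signals the values of Slc4a1 do not settle whether it differs with age.

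**Figure D1:**
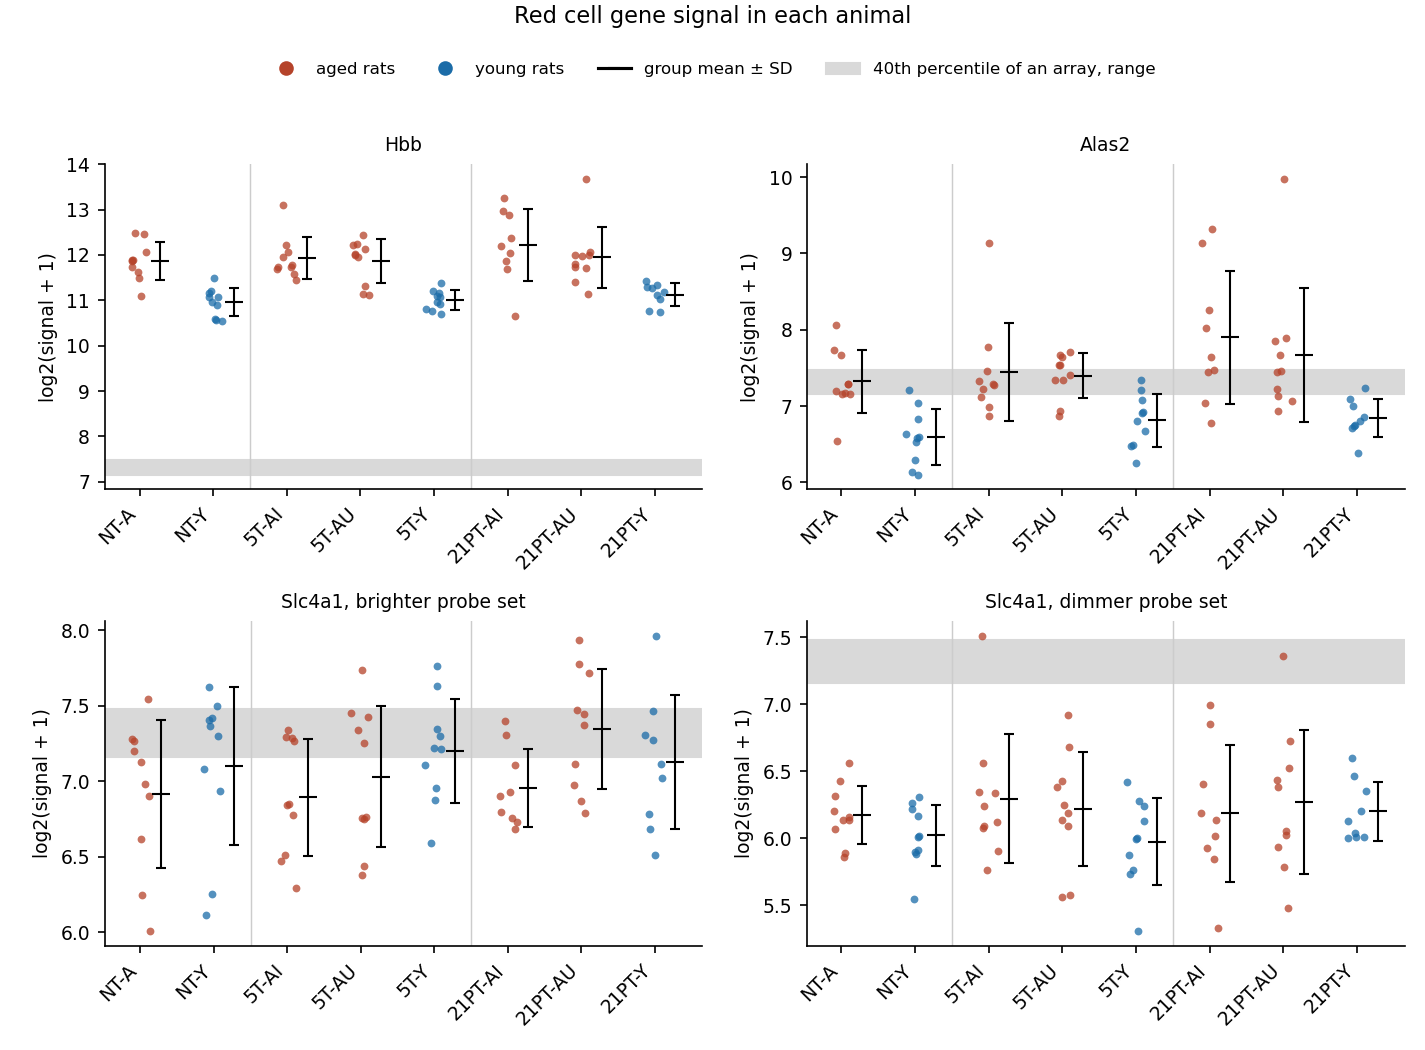
Signal of the 4 probe sets of Hbb, Alas2 and Slc4a1 as log2(signal + 1) in each of 78 animals, by group, with aged rats in red and young rats in blue. Bars give the group mean ± SD and the grey band the range of the 40th percentile over arrays; Hbb lies far above the band in all arrays, Alas2 straddles it in aged rats, and most Slc4a1 values lie in or below it.

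Read against all probe sets, 1 of the 4 members passed a Benjamini-Hochberg adjusted p of 0.05 in limma among home-cage rats, where 0.781% of 10371 probe sets passed. On day 5 it was 1 of 4, with 2.5% of all passing (2.32% without 5T-AI replicate 4), and on day 21 it was 2 of 4, with 2.84% passing. In the fit without a filter, from which the dimmer Slc4a1 probe set was taken, 0.473%, 1.68% and 1.7% passed. The member that passed in all 3 was Hbb, and Alas2 passed on day 21. Since such values led to the choice of these genes, nothing is read from the counts.

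Other globin probe sets, which the choice of members did not name, gave differences like those of Hbb where they were bright. The platform annotates 5 of them to more than 1 gene, 3 to α-globin and 2 to β-globin genes, so no single gene is named from them, and 1 is annotated to Hba-a3. The first of the α-globin probe sets averaged 12.43 ± 0.39 in NT-A and 11.65 ± 0.35 in NT-Y (SD, n = 10 each). The log2 differences of the 3 α-globin probe sets were 0.77 to 0.81 in home-cage rats, 0.85 to 0.90 on day 5 and 0.91 to 0.94 on day 21. Those of the β-globin probe sets were 0.99 and 1.48, 1.16 and 1.14, and 1.28 and 1.56. The second β-globin probe set was dim. It was above the mark of low signal in 19 of 78 arrays, with 0 such arrays in NT-Y, 5T-Y and 21PT-Y. In NT-Y its lowest and median signals were 8 and 45 units, so its differences are measured close to the background. Without 5T-AI replicate 4 the day 5 values were 0.82 to 0.85 for α-globin and 1.04 and 1.03 for β-globin. Hba-a3, a further α-like globin gene, was at 0.43 ± 0.33, 0.16 ± 0.28 and 0.45 ± 0.29. All of these probe sets read RNA from the same animals, and α- and β-globin sets of one family may share transcripts, so they do not replicate Hbb.

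**Figure D2:**
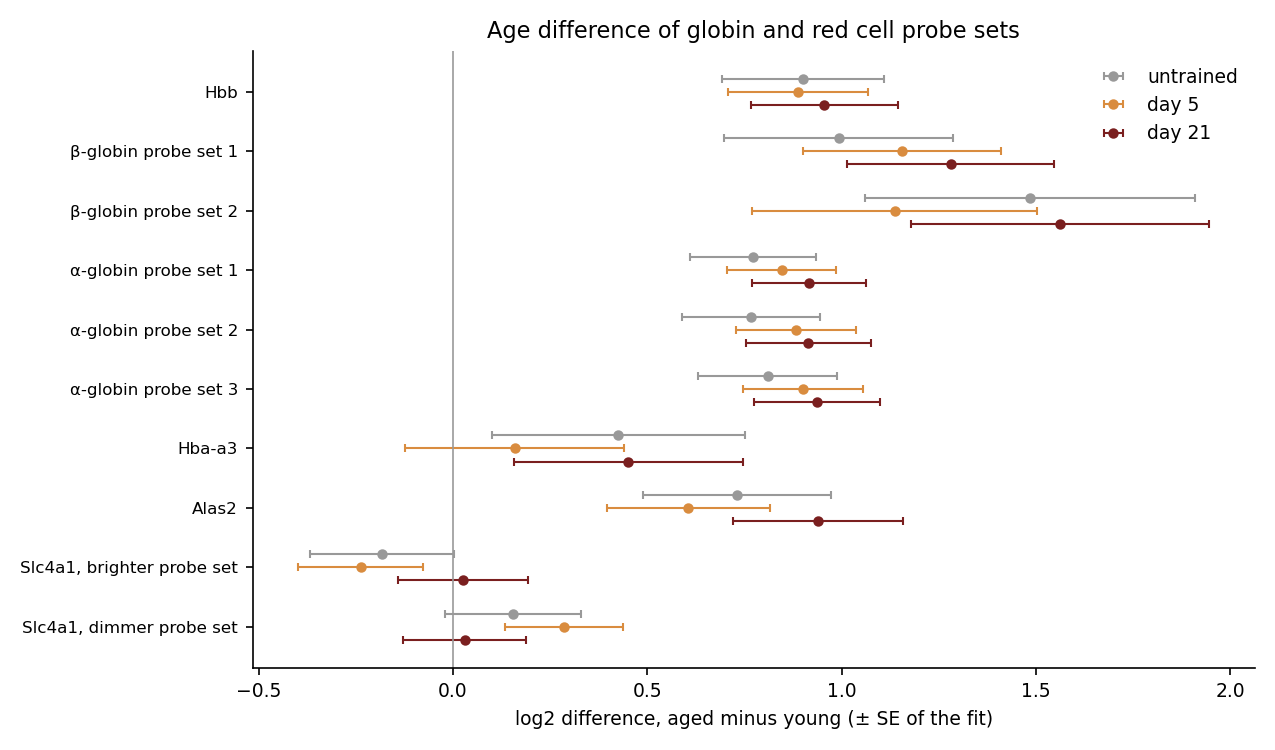
Log2 difference of aged minus young rats for 10 globin and red cell probe sets in the 3 cohorts, with points at the estimate and bars at ± 1 SE of the fit. The α- and β-globin sets and Alas2 lie right of 0 in each cohort, Hba-a3 lies nearer to 0, and the Slc4a1 sets lie around 0.

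Comparisons that the choice of members did not use asked whether maze training, impairment or the day after training went with these genes. There were 14 of them, 2 of impaired against unimpaired rats, 9 of trained rats against home-cage rats or of day 21 against day 5, and 3 of the age difference in one cohort against that in another. Of the 56 values for the 4 member probe sets 0 passed an adjusted p of 0.05 in limma, with 3 at an unadjusted p under 0.05 and a lowest adjusted p of 0.808. Over all probe sets 0.0964% passed in 21PT-Y minus 5T-Y (0.0756% in the fit without a filter), 0.0868% in 5T-AI minus NT-A (0.0567%), 0.0675% in 5T-Y minus NT-Y (0.0315%), 0.0289% in 5T-AU minus NT-A (0.0126%), 0.00964% in 21PT-AI minus 5T-AI (0.0063%) and 0% in the other 9.

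Hbb in impaired against unimpaired rats differed by 0.07 ± 0.21 on day 5 (95% interval -0.34 to 0.49, limma adjusted p = 0.998) and by 0.26 ± 0.21 on day 21 (-0.17 to 0.69, limma adjusted p = 0.997). On day 5 it was higher in the impaired rat on 5 of 10 scan days, and on day 21 on 6 of 8. Without 5T-AI replicate 4 the day 5 value was -0.06. With scan day as a block the day 21 value was 0.07, and with fluidics module as a term 0.43. Hbb in 21PT-AI against NT-A differed by 0.36 ± 0.21 (-0.07 to 0.78, limma adjusted p = 0.886), or 0.16 with scan day as a block. In 21PT-AI against 5T-AI it differed by 0.28 ± 0.21, which was 0.41 ± 0.21 without 5T-AI replicate 4 (limma adjusted p = 0.999), 0.56 with fluidics module and 0.09 with scan day. The age difference of Hbb on day 5 minus that in home-cage rats was -0.01, with an interval of -0.56 to 0.54, or -0.53 ± 0.41 with fluidics module as a term, and on day 21 it was 0.06, with an interval of -0.50 to 0.62. The interval on day 21 still holds an impaired over unimpaired ratio of up to 1.61-fold, and a p that misses the threshold does not show that the groups are alike.

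Alas2 in 21PT-AI against NT-A differed by 0.58 ± 0.25 (0.08 to 1.07, unadjusted p = 0.0233, limma adjusted p = 0.808), or 0.34 with scan day as a block. In 21PT-AI against 5T-AI it differed by 0.45 ± 0.25, which was 0.64 ± 0.24 without 5T-AI replicate 4 (limma adjusted p = 0.814) and 0.72 with fluidics module. Its difference between impaired and unimpaired rats was 0.05 on day 5, with an interval of -0.43 to 0.53 (-0.14 without 5T-AI replicate 4), and 0.23 on day 21, with an interval of -0.26 to 0.73. Slc4a1, by its brighter probe set, was lower in 21PT-AI than in 21PT-AU by 0.39 on the log2 scale at an unadjusted p of 0.0438, and 1 of 9 impaired rats was above the mean of the unimpaired rats. It was at 0.43 ± 0.19 in 21PT-AU against NT-A, with an unadjusted p of 0.0233 by limma. Neither value passed the adjustment, at limma adjusted p of 0.997 and 0.943. The lowest adjusted p over all Slc4a1 values was 0.859, for the dimmer probe set in 5T-AI minus NT-A.

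**Figure D3:**
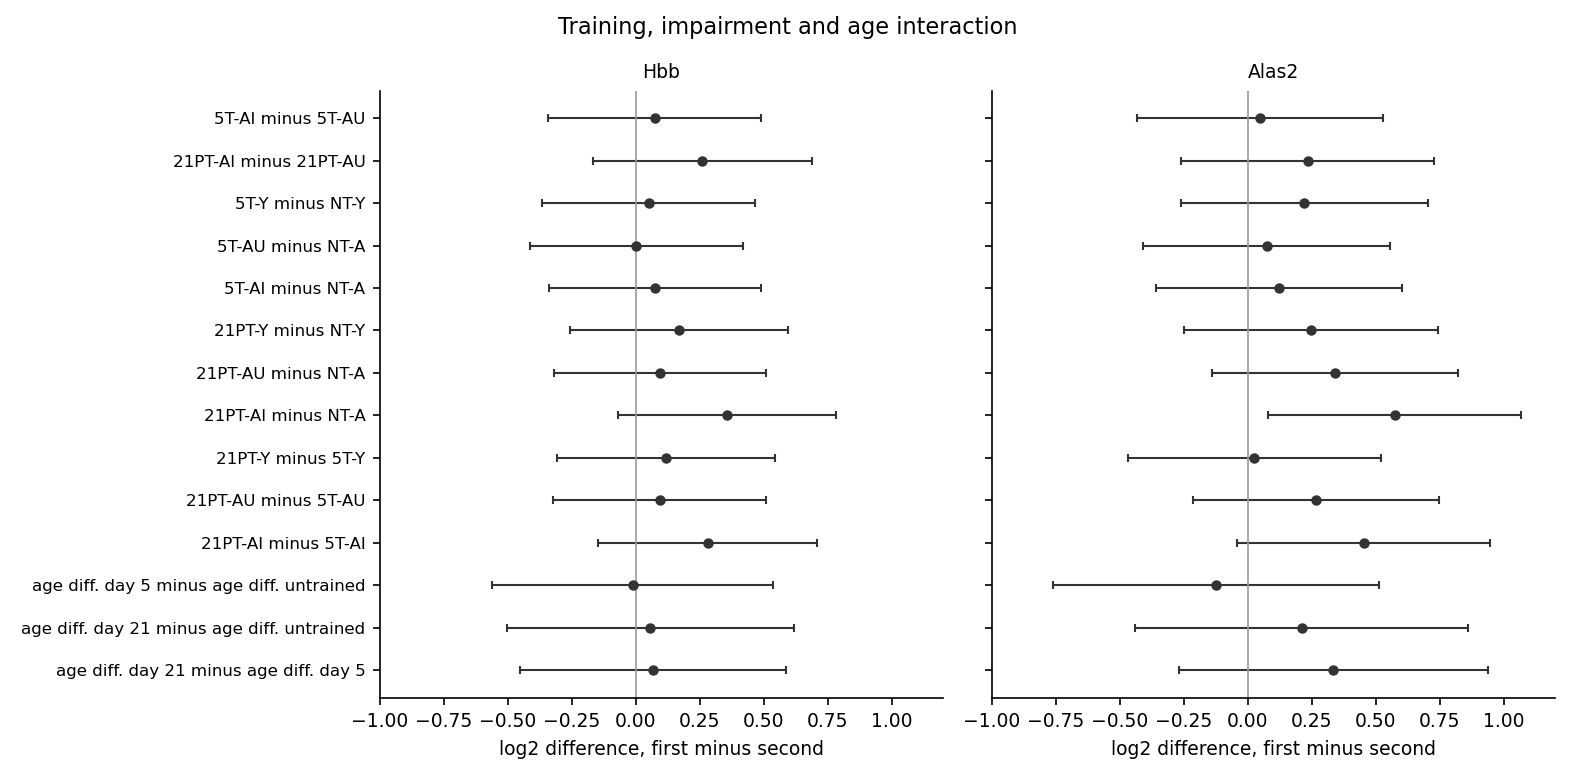
Log2 differences of Hbb and Alas2 in the 14 comparisons of training, impairment and the interaction with age, with points at the estimate and bars at the 95% interval of limma. All intervals of Hbb hold 0, and of Alas2 only that of 21PT-AI minus NT-A does not, before adjustment.

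Between animals of one group, Hbb and Alas2 moved together closely, and the brighter Slc4a1 probe set moved with neither. Each value was taken as the deviation from its group mean, which removes differences of mean with age and training. The spread within groups stays in, and that of Hbb and Alas2 was larger in aged rats, which therefore weigh more in their r. The p-values come from 100000 permutations within groups, two-sided and adjusted over the 3 pairs. Hbb and Alas2 gave a Pearson r of 0.851 (n = 78, permutation p = 1e-05, adjusted p = 3e-05, the smallest these permutations can give) and a Spearman rho of 0.764. Without the 2 animals farthest from the median of Hbb r was 0.788, and without 5T-AI replicate 4 it was 0.835. Without the 4 farthest animals, a setting added after the data were seen, r was 0.729. It was 0.890 among 49 aged and 0.566 among 29 young rats (permutation p = 0.00239, adjusted p = 0.00717). Within the 3 chip lots r was 0.822 (adjusted permutation p = 0.0852), 0.964 and 0.758. In chip lot 1 rho was 0.5165 (adjusted permutation p = 0.162).

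Hbb and the brighter Slc4a1 probe set gave r = 0.03 (n = 78, permutation p = 0.807, rho = -0.02), and Alas2 and the same probe set r = 0.06 (permutation p = 0.561, rho = 0.01). The dimmer Slc4a1 probe set, examined after these values were seen, gave r = 0.51 with Hbb (permutation p = 0.00014) and r = 0.64 with Alas2 (permutation p = 1e-05). That relation with Hbb rested on few animals. It was 0.449 without 5T-AI replicate 4, 0.371 without the 2 and 0.182 without the 4 animals farthest from the median of Hbb (permutation p = 0.168), and -0.05 among young rats.

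The same few aged rats were at the top of these genes. The 4 highest Hbb arrays were, in order, 21PT-AU replicate 3 at log2 13.68, 21PT-AI replicate 4 at 13.25, 5T-AI replicate 4 at 13.11 and 21PT-AI replicate 6 at 12.97. They were also the 4 highest in Alas2, in the same order, from 9.98 down to 9.13. In the dimmer Slc4a1 probe set they held ranks 2, 3, 1 and 5 of 78, and in the brighter one ranks 2, 62, 59 and 41. They came from 2 chip lots and 3 fluidics modules, unevenly. The array of 21PT-AU replicate 3 was in chip lot 1 and module 4. The others were all in chip lot 2, 21PT-AI replicate 4 and 5T-AI replicate 4 in module 1 and 21PT-AI replicate 6 in module 2.

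**Figure D4:**
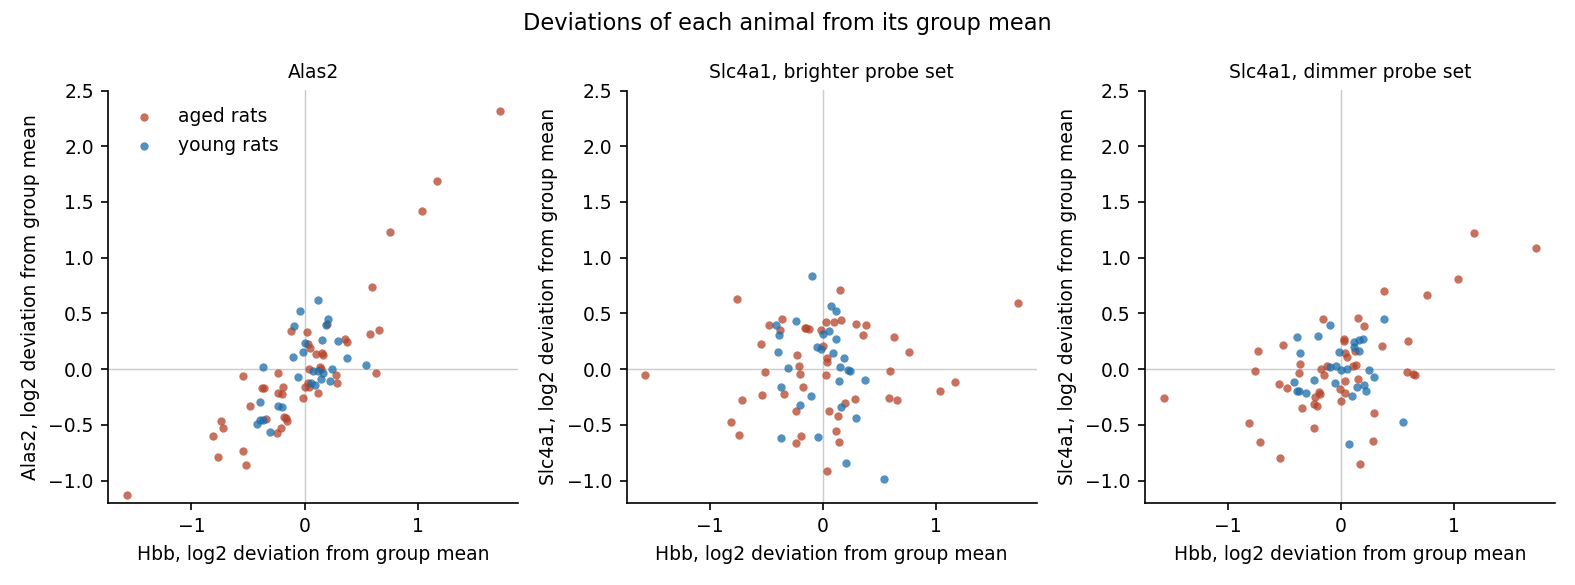
Deviation of each animal from its group mean (log2) in Hbb on the horizontal axis against Alas2 and the 2 Slc4a1 probe sets on the vertical axes, for aged (red) and young (blue) rats, n = 78. Alas2 rises with Hbb (r = 0.851, or 0.729 without the 4 animals farthest from the median of Hbb). The brighter Slc4a1 probe set shows no trend (r = 0.03), and the dimmer one follows Hbb mainly through a few aged rats.

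Of the 6 other globin probe sets 4 followed Hbb between animals more closely than Alas2 did, and 2 less closely. The α-globin sets had r of 0.900 to 0.948 and the β-globin sets r of 0.957 and 0.765, the last being above the 40th percentile in 19 of 78 arrays. Hba-a3 had r of 0.371. Leaving out 5T-AI replicate 4, the α-globin sets ran from 0.9005 to 0.944, the β-globin sets were at 0.956 and 0.748 and Hba-a3 was at 0.345. These are descriptions over the same 78 arrays, and Hbb and the β-globin sets may share RNA.

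Against this, few other genes tracked Hbb. Of 7488 genes ranked by r with Hbb over the 78 arrays only Alas2 and Clic1, an intracellular chloride channel protein at r = 0.511, exceeded 0.5, the median over all 10371 probe sets was -0.00107 and the 99th percentile 0.376. The next were Srgn (0.500), the proteoglycan core of secretory granules in blood and endothelial cells, S100a6 (0.495), a calcium-binding protein, Tgm2 (0.491), a transglutaminase, Rbm38 (0.478), an RNA-binding protein, Rsad2 (0.477), an interferon-responsive enzyme, and Slco2b1 (0.474), an organic anion transporter. The lowest were Lmtk2 (-0.478), Psd (-0.460), Syn2 (-0.452) and Fdft1 (-0.436). Without 5T-AI replicate 4 the 7 genes after Alas2 ran from 0.383 to 0.456, while Alas2 was at 0.835. Rsad2 was at -0.15 among young rats.

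Other listed genes of red cells that passed the filter did not follow Hbb as Alas2 did. On the array, 8 of 9 haem synthesis and 13 of 16 membrane genes passed it, members included. Of the others, 10 of 16 late erythroid, 2 of 5 transcription factor and 5 of 7 clearance genes did. The brightest membrane and late erythroid genes had mean log2 signals of 11.36 and 11.82. Whether r could show a small red cell share in such signals was not tested. Of the haem synthesis list 7 genes besides Alas2 passed the filter, with a median r of 0.194, and 1, Tspo (0.426), a mitochondrial membrane protein also made by microglia, was above the 95th percentile of all probe sets, 0.28. Alas1, the form of the enzyme that all tissues make, was at 0.243. Of 12 red cell membrane and skeleton genes besides Slc4a1 the median r was 0.0056, with Slc2a1 (0.351) and Epb41 (0.347), a skeleton protein, highest among the 3 above the 95th percentile. Of 10 red cell enzymes and late erythroid genes the median was 0.162, led by Gpx1 (0.468), which removes peroxides, and Ube2l6 (0.338). Of the erythroid transcription factors 2 passed, with Tal1 at 0.387 and Ldb1 at 0.10. Of 5 genes for the clearance of haemoglobin and haem none was above the 95th percentile, with Slc40a1, the iron exporter, at 0.2797 and Blvra at 0.245. Without 5T-AI replicate 4 the haem synthesis, membrane and late erythroid medians were 0.148, 0.0584 and 0.142. Those of the transcription factors and clearance genes went from 0.243 and 0.244 to 0.15 and 0.104. Tspo was then at 0.316, Alas1 at 0.262, Gpx1 at 0.386, Epb41 at 0.226 and Tal1 at 0.283. Above the 95th percentile, then 0.234, were 2, 2, 4, 1 and 1 genes of these lists.

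With age the medians of these lists moved little. As background, 0.781% of all probe sets passed an adjusted p of 0.05 in home-cage rats. On day 5 2.5% passed (2.32% without 5T-AI replicate 4) and on day 21 2.84%. The median difference of the haem synthesis list was 0.07, 0.06 and 0.05 in home-cage rats, on day 5 and on day 21, beside 0.00 to -0.01 over all probe sets. Of its 7 genes 2 passed the test on day 5, both higher in aged rats, Tspo (0.42, limma adjusted p = 0.0089) and Alad (0.19, limma adjusted p = 0.0109), and 0 in the other cohorts, where the lowest Tspo adjusted p was 0.144. Both still passed on day 5 without 5T-AI replicate 4, Tspo at 0.33 (limma adjusted p = 0.00103) and Alad at 0.20 (limma adjusted p = 0.006). Of the 12 membrane genes 0, 1 and 2 passed, all higher in aged rats, Tmod1 on day 5 (0.32, limma adjusted p = 0.000206) and day 21 and Slc2a1 on day 21. Of the 10 late erythroid genes 1 passed in each cohort, Tfrc, the receptor that takes up iron-laden transferrin. It was lower in aged rats by 0.27, 0.30 and 0.25 on the log2 scale, opposite in sign to Hbb. Tfrc had a mean log2 signal of 10.49, and the red cell part of that signal was not tested. No gene of the transcription factor or clearance lists passed, and Hmox1, which breaks haem down, was at 0.36, 0.37 and 0.39, with a lowest limma adjusted p of 0.0846.

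Markers of other blood cells were mostly too dim to measure. Of 15 leukocyte genes on the array 1, Lyz2, and of 5 platelet genes 1, Tbxas1, passed the filter, and microglia express both. Lyz2 had r = 0.271 with Hbb and 0.01 without 5T-AI replicate 4. The summed signal of the leukocyte list ran from 906 to 9038 units, with a median of 1426, in aged rats and from 1032 to 1523, with a median of 1265, in young rats, and up to 1967 in aged rats without that array. None of these probe sets was at 0 in all arrays. The part of other blood cells in the Hbb values was not tested.

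Genes of the vessel wall and of microglia moved with Hbb in part. Of 13 vessel genes 7 were above the 95th percentile of r, with a median of 0.296, led by the transporter Slco1a4 (0.443) and the tight junction protein Cldn5 (0.396). Without 5T-AI replicate 4 the median was 0.235 and again 7 genes exceeded the 95th percentile, then 0.234. Of 10 microglial genes 4 were above it, with a median of 0.274, led by P2ry12 (0.389) and Tyrobp (0.334), and without that array 1 was, with a median of 0.0545. Neuronal genes had a median of -0.227 with all arrays and -0.062 without it. Choroid plexus genes had a median of 0.0437 and meningeal genes 0.275, or 0.0643 without that array. Astrocyte and oligodendrocyte genes had medians of 0.0331 and 0.172.

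With age, 4 of 13 vessel genes passed on day 21, all higher in aged rats. They included Slc2a1, the glucose transporter, at 0.29 (limma adjusted p = 0.00829) and Flt1, a growth factor receptor, at 0.54 (limma adjusted p = 0.018). Of all probe sets 0.781% passed in home-cage rats, 2.5% on day 5 and 2.84% on day 21. On day 5 1 vessel gene passed, which was lower, while 0 passed in home-cage rats, where the median difference was -0.03. Of the microglial genes 3, 7 and 6 of 10 passed in the 3 cohorts, all higher in aged rats, with median differences of 0.34, 0.53 and 0.58. Without 5T-AI replicate 4, 7 of 10 passed on day 5, with a median of 0.46, beside 2.32% of all probe sets. The summed signal of 22 vessel genes ran from 3612 to 7719 units in aged rats, with a median of 5243, and from 3936 to 5668 in young rats, with a median of 4877. That of 11 microglial genes ran from 7899 to 31487 in aged rats, with a median of 9345, and from 5594 to 7980 in young rats, with a median of 6574. Whether vessels or microglia have a part in the Hbb difference was not tested.

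**Figure D5:**
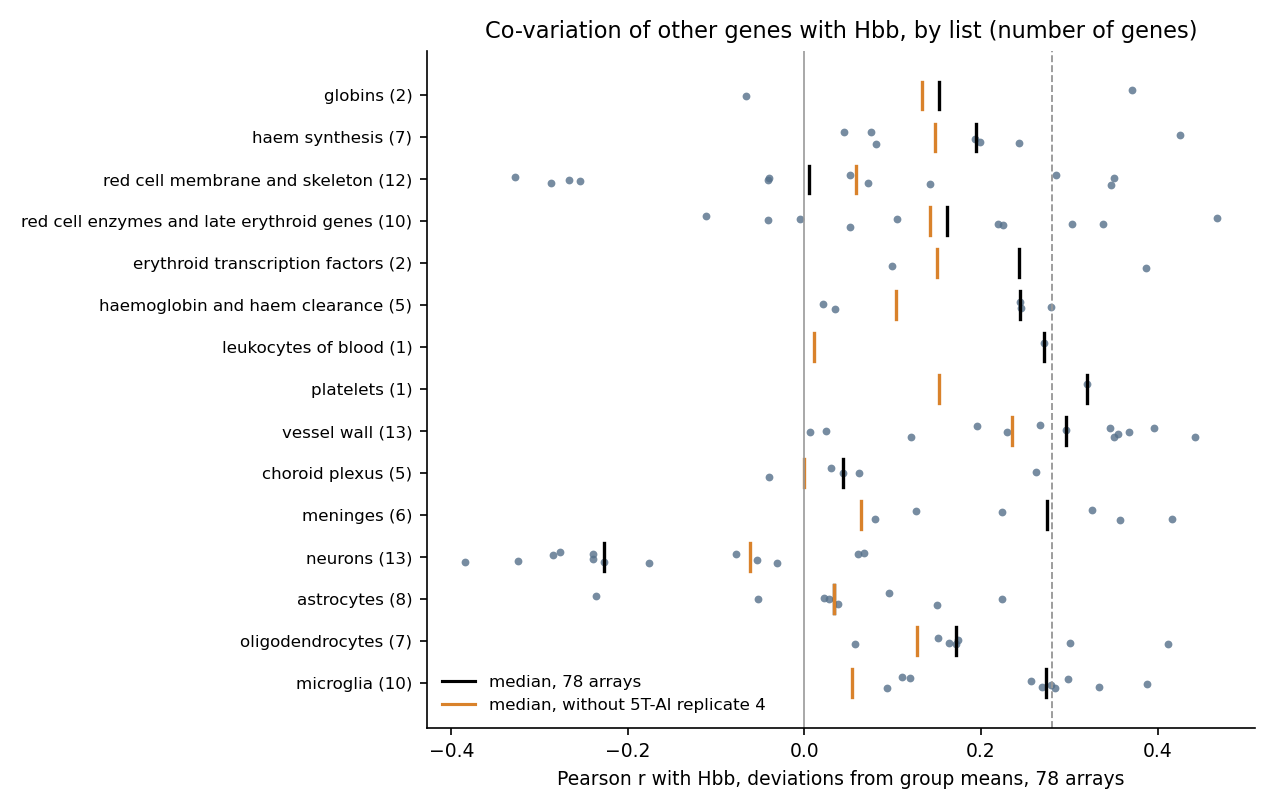
Pearson r with Hbb over 78 arrays, on deviations from group means, for genes of 15 lists (points; number of genes in brackets, without Hbb, Alas2 and Slc4a1), with the median over all arrays in black and without 5T-AI replicate 4 in orange. The dashed line is the 95th percentile of all probe sets, 0.28; vessel wall genes lie highest among the lists with over 5 genes, and the medians of microglia and meninges fall toward 0 without that array.

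No relation of Hbb with maze performance or with array quality passed the adjustment. Over deviations within groups, the time to reach the platform gave r = -0.27 in 39 aged trained rats (rho = -0.20, permutation p = 0.184, adjusted p = 0.522) and 0.08 in 19 young trained rats (rho = 0.26). Time spent at the former platform site gave r = -0.18 and 0.18 in the same rats (rho = -0.22 and 0.07), and over the 4 relations the lowest adjusted p was 0.522 for r and 0.371 for rho. Without the 2 animals farthest from the median, r in aged rats was 0.08 for time to platform, so its sign rested on them. With the 3′ over 5′ ratios of the Gapdh and beta-actin controls and with the array median r was 0.14, 0.11 and 0.17 (rho = 0.24, 0.22 and 0.09), at an adjusted p of 0.326 each for r over the 3 relations. For rho the Gapdh ratio had an unadjusted permutation p of 0.0483, and the adjusted p was 0.0928 for both ratios and 0.443 for the array median.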

How the data were processed

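The authors deposited MAS5 signal intensities, not on a log scale. The submitters' processing notes name GCOS 1.1 as the software. Their mean after trimming 2% at each end was between 500.08 and 500.1 in all arrays, so no further normalization was applied. Of 15923 probe sets 57 controls were left out, and of the rest 12783 had 1 symbol, 312 several and 2771 none. A model of 8 group means was fitted to log2(signal + 1) by lmFit and trended eBayes (limma 3.58.1, R 4.3.3). The fit used 10371 probe sets above the 40th percentile of their own array in at least 9 arrays, and p-values were adjusted over all of them. The labels name animals, so each array is 1 rat, and their number limits the precision.

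The members and gene lists were chosen with earlier results of these data known. The named genes are the members, the 2 genes of a list with the smallest p or largest absolute r, and the 8 highest and 4 lowest in r with Hbb, by the brightest probe set. Correlations used 100000 permutations within groups. Scan day, chip lot and module came from the array records, and maze measures from the animal table. Alternatives were a pseudocount of 32, quantile normalization, leaving out the filter, replicate number, scan day or chip lot as a block, fluidics module or the beta-actin ratio as a term, and single arrays left out. The fit and the correlation were tested on simulated data. Promoters came from RefSeq. The other steps ran in Python 3.11.15 with pandas 2.3.3, scipy 1.17.1, matplotlib 3.10.9 and numpy 2.4.6.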

Additional observations from a re-analysis of the deposited data

Results flagged for a closer look

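In 32 tests of the highest or lowest animal of a group (Dixon's ratio, 8 groups by 4 member probe sets), 5 values lay far from the others, and chance gives about 1 in 20. They came from 2 animals. In 21PT-AU replicate 3, Hbb was at log2 13.68, with the next rat of its group at 12.07, and Alas2 at 9.978, with the next at 7.895. In 5T-AI replicate 4, Hbb was at 13.11 (next 12.22), Alas2 at 9.14 (next 7.778) and the dimmer Slc4a1 probe set at 7.513 (next 6.562). The second of these arrays is also the one with the highest microglial and leukocyte sums and the lowest neuronal sum, and the part of those cells in its Hbb value was not tested.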

How the results depend on the processing

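Hbb and Alas2 were higher in aged than in young rats under all 10 alternatives in all 3 cohorts. Hbb ran from 0.881 to 1.129 in home-cage rats, 0.596 to 0.890 on day 5 and 0.870 to 1.057 on day 21, and Alas2 from 0.584 to 1.196, 0.415 to 0.606 and 0.805 to 1.012. None of the 14 tested comparisons passed for a member under any alternative run, with a lowest adjusted p of 0.582. Near 0 some signs turned, and the cause was not tested. With fluidics module as a term, Hbb was at -0.03784 in 5T-AI minus 5T-AU, -0.04097 in 5T-AU minus NT-A, -0.07881 in 5T-AI minus NT-A, -0.1301 in 21PT-Y minus 5T-Y and -0.07251 in the age difference on day 21 minus that in home-cage rats. Alas2 was at -0.2117 in 5T-AI minus 5T-AU, -0.2029 in 5T-AI minus NT-A and -0.308 in that last comparison. With scan day as a block, Alas2 in 21PT-AI minus 21PT-AU was -0.001772, and the Hbb age difference on day 21 was -0.03004 against home-cage rats and -0.01808 against day 5. With the beta-actin ratio, Alas2 in 21PT-Y minus 5T-Y was -0.04932 and the Hbb age difference on day 5 minus that in home-cage rats 0.004925. Over single arrays left out, 5T-AI minus 5T-AU ran from -0.05691 to 0.07333 in Hbb and -0.1403 to 0.04772 in Alas2, 5T-AI minus NT-A from -0.05513 to 0.07511 and -0.06657 to 0.1215 (the lower values without 5T-AI replicate 4), and 21PT-Y minus 5T-Y in Alas2 from -0.005811 to 0.02583. With module, the age difference on day 5 minus that in home-cage rats was -0.5331 in Hbb and -0.7804 in Alas2, against -0.01196 and -0.1239 without it. With a replicate block, Hbb was at 0.90 in NT-A minus NT-Y and 0.2597 in 21PT-AI minus 21PT-AU, and no call changed. Same-numbered arrays of different groups had a mean correlation of 0.139 over 267 pairs, against -0.0152 for other numbers, and 162 pairs were over 0.1. As the lowest pair was at -0.251 and not every pair was over 0.1, the numbers were not taken as a pairing.

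The r of Hbb and Alas2 was 0.8223 within chip lot 1, where its adjusted p was 0.0852. With the brighter Slc4a1 probe set, r of Hbb and of Alas2 was -0.2994 and -0.1684 in young rats, -0.1125 and -0.2348 in chip lot 3, -0.04252 and -0.01199 without the 2 and -0.04603 and -0.01482 without the 4 farthest animals, and that of Alas2 was -0.002538 after quantile normalization. With the dimmer one, an alternative added after the data were seen, as was leaving out 4 animals, r was 0.5125 and 0.6443, 0.3712 and 0.5303 without 2 animals, 0.6038 and 0.7146 in aged rats, -0.04979 with Hbb in young rats and 0.31 with Alas2 without 4 animals. Hbb and maze measures without the 2 farthest animals gave 0.07691 (time, aged), -0.003 (time, young) and -0.1425 (site, young). A second Hbb probe set, planned as an alternative, was not run, as the platform names 1. Signal over background limits Alas2 and above all Slc4a1, for which small changes could not be seen.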
